A study of Mus musculus with 22 samples.

Results

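The 11 libraries described here held the RNA of whole dissected tissue, taken before any cell type was selected, from mice infused with human tyrosinase (hTyr) or with the fluorescent protein EYFP. They were chosen by their labels as input libraries and are 11 of the 22 libraries of the study. The other 11 are immunoprecipitated (IP) libraries of the same animals, made by pulling tagged ribosomes out of noradrenergic cells. The question put to the input libraries was how the tissue around those cells, with its glia, vessels, immune signals and neighbouring neurons, differed between the treatments.

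The hTyr group had 5 animals, with input libraries Pre_501, Pre_502, Pre_508, Pre_509 and Pre_510, always given in this order below. The EYFP control group had 6 animals, with input libraries Pre_504, Pre_505, Pre_506, Pre_507, Pre_511 and Pre_512. All 11 animals carried the same transgenes on a C57Bl/6 background, Th-cre and Slc6a2-eGFP/Rpl10a, so controls also made Cre recombinase under the Th promoter and the tagged ribosomal protein under the Slc6a2 promoter. Expression of Cre and of the tag is thus limited to cells in which these promoters are active. The labels do not give an age, the time after infusion or a sequencing batch. Each input library came from a differently numbered animal, and an animal is the replicate in the comparison of input libraries. The main comparison of input with IP did not pair the libraries of an animal, and an alternative did.

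The locus coeruleus is a small nucleus of noradrenergic neurons in the dorsal pons, beside the fourth ventricle and under the cerebellum. Its neurons make noradrenaline through the enzymes Th, Ddc and Dbh, load it into vesicles with Slc18a2 and take it back up with the transporter Slc6a2. In humans they accumulate neuromelanin, a dark pigment that rodents form little of and that tyrosinase, the enzyme of skin pigment synthesis, can produce. When neurons are injured, surrounding astrocytes and microglia commonly raise known sets of reactive genes, which makes bulk tissue a usual place to look for such a response.

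Expression was given for 12596 genes as log2 CPM. Reads were scaled to a size set for each library and put on a log2 scale with a small pseudocount. Taken back to the linear scale, the input libraries summed to 972556 to 1040933, so that size was not simply the library's total of reads. Input libraries held 18771136 to 25100142 reads in hTyr and 16988860 to 21480570 in EYFP. Pearson's r between any pair of input libraries, across genes, lay between 0.974 and 0.992. Reads of Y-linked genes were present in 2 of the 5 hTyr libraries and 3 of the 6 EYFP libraries (926 to 1343 reads summed over 4 genes) and at 0 to 2 reads in the others. Since the labels name only the treated cells, whether the tissue held noradrenergic cells was checked on Dbh, an enzyme of noradrenaline synthesis. It was present in every input library, at 2.85 to 3.63 log2 CPM. Dbh alone cannot tell the locus coeruleus from other noradrenergic cells.

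Some input libraries stood apart in genes that belong to other structures, by up to 11.66 log2 units between animals (Prl). Ddn, a postsynaptic protein of forebrain neurons, ranged from 3.87 to 8.97 log2 CPM over the 11 libraries. It stood at 8.39 in hTyr animal Pre_509 and between 3.87 and 4.59 in the other 4 hTyr animals. In EYFP it had a median of 6.32 and reached 8.97 in animal Pre_505 and 7.37 in animal Pre_504. Both groups thus contained low and high libraries.

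The pituitary hormone genes Gh and Prl spread still further. Gh, growth hormone, stood at 0.06, 4.50, 5.14, 4.35 and 4.99 log2 CPM in hTyr animals Pre_501, Pre_502, Pre_508, Pre_509 and Pre_510. In EYFP it ran from 2.38 in animal Pre_505 to 10.25 in animal Pre_507, with a median of 5.93, and animal Pre_504 was also high at 9.26. Prl, prolactin, was highest in animal Pre_504 at 10.11 and lowest in animal Pre_501 at -1.55. The groups overlapped for both hormones, and the log2 changes of -2.54 for Gh and -1.96 for Prl had 95% intervals that reached 0.05 and 1.18.

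Genes of the cerebellum, which lies directly above the locus coeruleus, were higher in some EYFP libraries. Gabra6, a GABA receptor subunit of cerebellar granule cells, stood at -0.38, 1.19, 1.17, 0.94 and 0.10 log2 CPM in the 5 hTyr animals in the order above. In EYFP it ranged from -0.60 to 4.16 with a median of 2.52, and the high values were those of animals Pre_506, Pre_511 and Pre_504. Over the 14 genes of a cerebellar granule and Purkinje cell list, all measured, 13 were lower in hTyr, where 46.4% of all genes were higher. Their median log2 change was -0.32 against -0.01 over all genes. The mean over the list lay at 3.71 to 4.04 log2 CPM in hTyr and at 3.71 to 5.47 in EYFP, so 2 EYFP animals (Pre_507 and Pre_512) sat within the hTyr range. Of the 14 genes, 8 had an unadjusted limma p under 0.05, as did 3.03% of all genes tested, and 0 passed the adjusted threshold. Besides Gabra6 (-1.46) they included Pcp2 (-1.33) and Car8 (-1.03) of Purkinje cells.

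Ttr, the transthyretin gene that marks choroid plexus, was low in 3 libraries of both groups. It stood at 7.78 in hTyr animal Pre_501, 8.66 in hTyr animal Pre_509 and 7.58 in EYFP animal Pre_504, and between 10.34 and 11.06 in the other 8. The hypothalamic peptide genes Hcrt and Pmch were high in hTyr animals Pre_501 and Pre_502 and in EYFP animals Pre_504 and Pre_507, with Hcrt at 4.19, 3.79, 3.17 and 3.95. The IP library of the same animal gave similar levels. Gh stood at 10.55 in IP_507 and 0.03 in IP_501, Ddn at 8.43 in IP_505 and 7.41 in IP_509, and Ttr at 7.33 in IP_504 and 7.30 in IP_501.

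**Figure D1:**
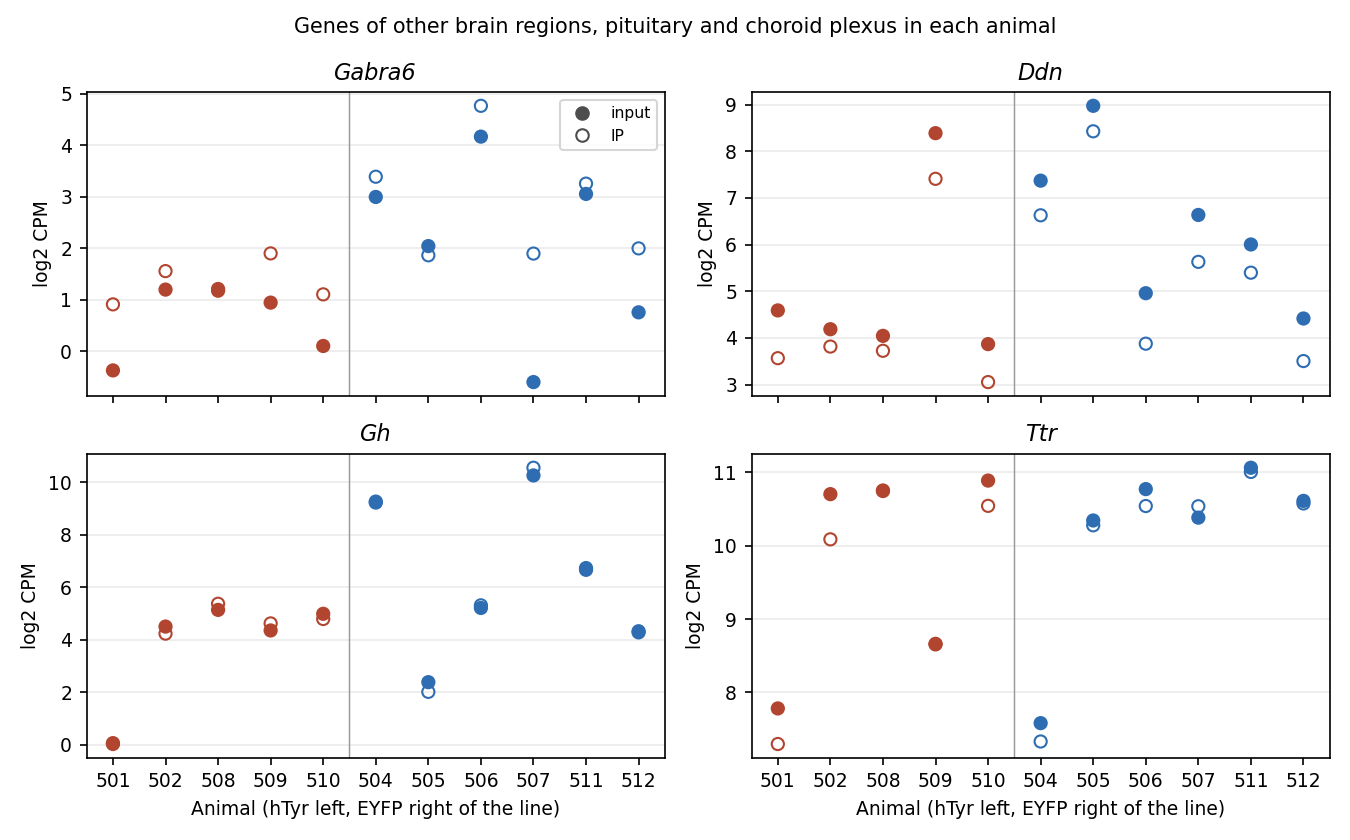
Levels (log2 CPM, vertical axes) of Gabra6 (cerebellum), Ddn (forebrain), Gh (pituitary) and Ttr (choroid plexus) in each of the 11 animals, marked by the number in the library's name, hTyr in red on the left and EYFP in blue on the right of the line; filled points are input libraries and open points IP libraries. Levels differ between animals by up to 10.19 log2 units in input (Gh), and animals with high filled points also have high open points.

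Of the 11 genes whose mean level differed by at least 1 log2 unit, all were lower in hTyr, and all belong to cerebellum, forebrain or pituitary. They included Gh, Prl, Cga, Gabra6, Ddn, Pcp2, Cbln3, Ppp1r17, Neurod1 and Car8, and all 11 changes lay at -2.54 to -1.03. None passed the adjusted threshold (adjusted p = 0.990 in limma for each). Over lists of such genes that were drawn up after the values were seen, the median change was -0.68 for 11 measured forebrain genes of 13, -1.71 for 4 pituitary genes of 8 and -0.40 for 2 hypothalamic genes of 7. The 12 measured genes of ependyma and choroid plexus had a median of -0.29, which was 0.04 without Pre_501. The 13 mitochondrially encoded genes had a median of -0.16 and were highest in Pre_507. How much the placement of the dissection contributed to any result below was not tested. Changes with list means as covariates are given beside Slc6a2, Gad1 and the microglia list.

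**Figure D2:**
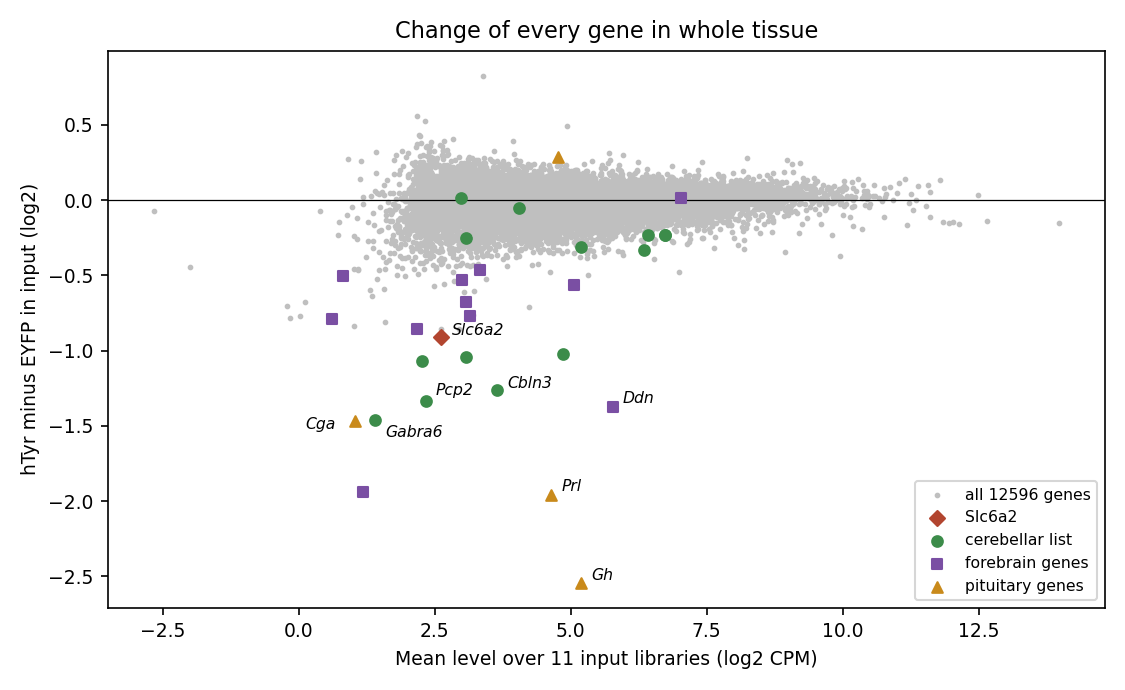
Log2 change in hTyr against EYFP input (vertical axis) by mean level over the 11 input libraries (log2 CPM, horizontal axis) for all 12596 genes in grey, with Slc6a2 and the genes of cerebellum, forebrain and pituitary in colour. Most genes lie within 0.25 log2 units of 0, and the largest differences, down to -2.54 for Gh, belong to the coloured region genes.

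Against this background whole tissue differed little between the treatments. A single gene, Slc6a2, passed the adjusted threshold of 0.05 (0.00794% of genes tested), and it was lower in hTyr. Before adjustment 382 genes (3.03%) had p under 0.05, of which 125 were higher (0.992%) and 257 lower (2.04%). The 2 groups did not overlap for 22 genes (0.175%). The log2 change was within 0.1 of 0 for 68.5% of genes and between 0.1 and 0.25 in size for a further 27.5%. The median standard error of a log2 change was 0.09, and the 95% interval lay within 2-fold in both directions for 12513 genes (99.3%) and within 1.5-fold for 12032 genes (95.5%).

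Slc6a2, the noradrenaline transporter that also marks the cell type, fell in hTyr tissue. The gene (ENSMUSG00000055368.14) lies on the plus strand of chromosome 8 at 92960079 to 93001667 of mm10. It stood at 2.07, 1.84, 2.19, 2.23 and 2.27 log2 CPM in hTyr animals Pre_501, Pre_502, Pre_508, Pre_509 and Pre_510. In EYFP the lowest library was at 2.80, the median at 3.03 and the highest at 3.30. Every hTyr animal lay below every EYFP animal, and the nearest were hTyr animal Pre_510 and EYFP animal Pre_504.

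The counts behind these levels were low, at 67 to 106 reads in hTyr and 132 to 193 in EYFP. The log2 change was -0.91 (SE 0.13, 95% interval -1.18 to -0.64, adjusted p = 0.0339 in limma), so the level fell by 46.9%. The pooled SD between animals was 0.18. In bulk tissue, fewer noradrenergic cells and less Slc6a2 RNA per cell cannot be told apart. Among libraries with Y-linked reads the change was -0.996 (2 hTyr and 3 EYFP animals), and among those without it was -0.818 (3 and 3).

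The call was close to the threshold. Leaving out 1 animal at a time kept the log2 change between -0.96 and -0.84, and Slc6a2 stayed past the adjusted threshold in 2 of the 11 fits, those without EYFP animal Pre_504 and without hTyr animal Pre_509, with adjusted p between 0.0348 and 0.166 over the 11. With the mean of the cerebellar list as a covariate the change was -1.03 (adjusted p = 0.0769), and with the mean of 11 forebrain genes -0.92 (adjusted p = 0.0762).

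The other 12 genes of the noradrenergic list gave 0 calls at the adjusted threshold. Dbh stood at 3.04, 2.98, 3.01, 3.13 and 2.85 log2 CPM in the hTyr animals and at 2.95 to 3.63 in EYFP with a median of 3.14. Its change was -0.24 with an interval of -0.51 to 0.04, and the groups overlapped. Th, the first enzyme of the pathway, stood at 5.52, 5.35, 5.03, 4.72 and 5.52 in hTyr and at 4.82 to 5.14 in EYFP, a change of 0.20 (-0.07 to 0.47). Slc18a2, the vesicular transporter that other monoamine neurons also use, gave -0.09 (-0.35 to 0.16).

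All 13 genes of the list were measured, and their changes had a median of -0.04, which was 0.11 under quantile normalization. Apart from Slc6a2, Ret, a receptor for neurotrophic factors of the GDNF family, had an unadjusted p under 0.05, at 0.16 (unadjusted p = 0.0248, adjusted p = 0.990 in limma). Gch1, which makes the cofactor of Th, gave 0.25 (-0.04 to 0.53), and the peptide gene Gal gave 0.24 (-0.07 to 0.55). Set against the mean of the other 12 genes of the list in the same library, Slc6a2 lay 1.51 to 2.08 log2 units below it in hTyr and 0.68 to 1.12 below it in EYFP. The groups were separate on this within-library scale, as they were for the level of Slc6a2 itself, so this is no independent result. These 11 values are a description without a test. Among the IP libraries of the same animals the change of Slc6a2 was -0.39, and the effect in input minus that in IP was -0.53 with an interval of -1.15 to 0.10.

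**Figure D3:**
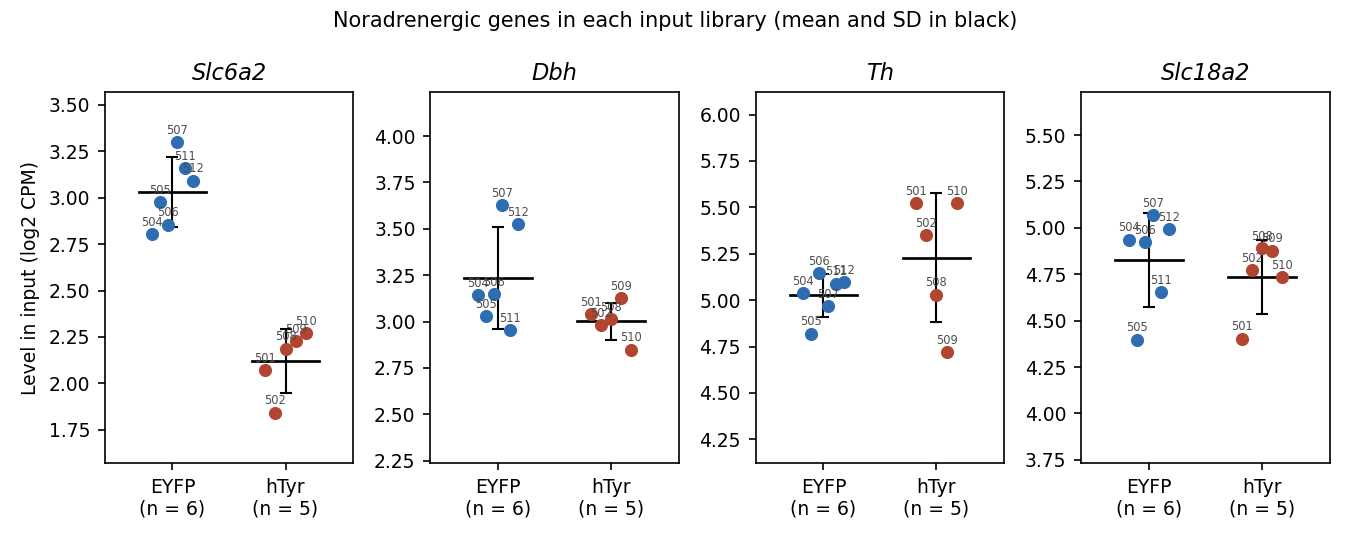
Levels (log2 CPM, vertical axes, each spanning the same 2 log2 units) of Slc6a2, Dbh, Th and Slc18a2 in each input library, numbered by animal, for 6 EYFP and 5 hTyr animals; black lines are means and bars SD. For Slc6a2 the hTyr points (1.84 to 2.27) lie below all EYFP points (2.80 to 3.30), while the other 3 genes overlap between groups.

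Neurons of neighbouring nuclei showed 0 calls at the adjusted threshold. Tph2, the enzyme of serotonin synthesis in the dorsal raphe, stood at 4.68, 4.47, 4.73, 4.84 and 5.26 log2 CPM in hTyr and at 4.45 to 4.99 in EYFP (median 4.73), and its change was 0.07 (-0.19 to 0.33). The 7 measured serotonergic genes of 9 listed had a median change of 0.07, and all 7 intervals lay within 1.5-fold. Chat, which makes acetylcholine in the cranial motor and tegmental nuclei, gave 0.17 (-0.15 to 0.49), and the 6 measured cholinergic genes a median of 0.06. Slc6a3, the dopamine transporter, stood at 4.76 to 4.996 in hTyr and 4.44 to 4.90 in EYFP, a change of 0.23. Its unadjusted p was 0.0243 (adjusted p = 0.990 in limma). The 3 measured dopaminergic genes of 7 listed had a median change of 0.06 and ran from -0.27 to 0.23. Slc17a6, the vesicular glutamate transporter of the brainstem, gave -0.10 (-0.32 to 0.11).

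Gad1, which makes GABA, was the 1 of 12 measured GABAergic and glycinergic genes with an unadjusted p under 0.05. It stood at 7.22, 7.38, 7.47, 7.52 and 7.60 in hTyr and at 7.48 to 7.82 in EYFP, a change of -0.19 (-0.36 to -0.02). With the cerebellar list mean as a covariate this value was -0.08, and that mean was itself lower in hTyr (median 3.90 against 4.52). Gad1 is also made by Purkinje cells, and whether cerebellar tissue contributed to its change was not tested. The 14 genes expressed by neurons in general, such as the synaptic gene Snap25 (0.00) and the neurofilament Nefl (0.05), had a median of 0.01 (-0.01 under quantile normalization), with all 14 intervals within 1.5-fold. The 16 measured genes of an axon injury list, which includes Atf3 and Gap43, had a median of 0.04 and no member at an unadjusted p under 0.05. For adrenergic receptors, the proteins through which noradrenaline acts on its targets, the 6 measured genes had a median of 0.08 and none was at an unadjusted p under 0.05.

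Oligodendrocyte genes, the RNAs of myelinating cells, had mostly small positive changes in hTyr, with 0 calls at the adjusted threshold. Of the 21 listed genes, all measured, 20 had a positive change, against 46.4% of all genes, and the median was 0.10. The mean over the list was 7.77 to 7.96 log2 CPM in hTyr and 7.60 to 7.82 in EYFP, so the groups overlapped. Before adjustment 6 of the 21 had p under 0.05 and a positive change, against 0.992% of all genes, among them Opalin, Olig2, Olig1, Gjb1 and Gpr37. Opalin, a membrane protein of mature oligodendrocytes, stood at 6.02, 5.94, 5.86, 5.62 and 5.94 in hTyr and at 5.34 to 5.79 in EYFP (median 5.53), a change of 0.31 (0.11 to 0.51, adjusted p = 0.990). Olig2 and Olig1, transcription factors of this lineage, gave 0.20 and 0.18.

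The interval of the main myelin gene included 0. Mbp, myelin basic protein, stood at 11.94, 11.64, 11.90, 11.78 and 12.06 in hTyr and 11.54 to 11.93 in EYFP, a change of 0.14 (-0.07 to 0.34). All 21 intervals lay within 1.5-fold. The list median stayed between 0.07 and 0.13 when each animal was left out in turn, and was 0.08 to 0.12 under quantile normalization, median centring or removal of length and GC trends. Among 12 genes of oligodendrocyte precursors the median was -0.03, or 0.01 with length and GC trends removed. Pdgfra, the growth factor receptor that defines them, gave -0.02 (-0.26 to 0.21), while C1ql1 was at 5.87 to 6.13 in hTyr and 5.58 to 5.99 in EYFP, a change of 0.23 (unadjusted p = 0.0119, adjusted p = 0.990).

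Astrocyte genes gave 0 calls at the adjusted threshold. The 17 listed genes, all measured, had a median of 0.04, with all intervals within 1.5-fold. Gfap, the intermediate filament that reactive astrocytes raise, stood at 9.27, 9.14, 9.14, 9.23 and 9.25 log2 CPM in hTyr, within the EYFP range of 8.77 to 9.36, and its change was 0.11 (-0.09 to 0.31). Aqp4, the water channel of their endfeet, gave -0.03 (-0.35 to 0.30). Slc1a3, a glutamate transporter of astrocytes, was the 1 gene at an unadjusted p under 0.05. It stood at 5.88, 6.00, 6.38, 6.40 and 6.25 in hTyr and at 6.20 to 6.69 in EYFP. The change was -0.28 (-0.52 to -0.04, adjusted p = 0.990 in limma). Slc1a3 is also expressed by the Bergmann glia of the cerebellum, and whether these contributed was not tested.

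Genes that astrocytes raise on injury gave no call. Of 22 reactive astrocyte genes 14 were measured, with a median of 0.04, no unadjusted p under 0.05 and all 14 intervals within 1.5-fold. Serpina3n, a protease inhibitor and a common marker of that state, gave 0.12 (-0.08 to 0.31), and the intermediate filament gene Vim gave -0.05 (-0.29 to 0.18). The other 8 genes of the list, among them Lcn2, were not analysed here.

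Microglia, the resident immune cells of the brain, likewise gave 0 calls. All 20 listed genes were measured, and 16 had a positive change, against 46.4% of all genes. The list median was 0.07, with no unadjusted p under 0.05. This sign was not stable, since the list median was -0.04 with the cerebellar covariate and -0.12 with the oligodendrocyte covariate, and ran from -0.02 to 0.13 with each animal left out. Cx3cr1, the fractalkine receptor, gave 0.02 (-0.24 to 0.27), Tmem119 0.04 (-0.19 to 0.27) and Aif1, the gene of the Iba1 protein, -0.06 (-0.42 to 0.29). C1qa, a complement component made by microglia, stood at 5.66, 5.27, 6.16, 5.61 and 6.24 in hTyr and at 5.28 to 6.24 in EYFP, a change of 0.12 (-0.28 to 0.52).

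The disease-associated state of microglia, in which lipid and lysosomal genes rise, was represented by 14 measured genes of 21. Their median was 0.04, and none had an unadjusted p under 0.05. The other 7, among them Cst7, Itgax and Clec7a, were not analysed here. Apoe, the lipid carrier, gave 0.10, and Cd68, a lysosomal protein, gave 0.23 with a wide interval of -0.29 to 0.74. Cd68 was lowest in EYFP animal Pre_511, at 1.60 against 2.66 to 2.97 in the other EYFP animals. None of the 20 genes on a list of border macrophages and infiltrating leukocytes, such as Mrc1, Cd3e and S100a8, was among the genes measured, and these cells were not analysed here.

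Vessel genes lay close to 0. The 14 measured endothelial genes of 20 listed had a median of -0.08, and Cldn5, a tight junction protein of the blood-brain barrier, stood at 3.52, 3.47, 3.75, 3.33 and 3.25 in hTyr and at 3.17 to 3.99 in EYFP, a change of -0.10 (-0.43 to 0.24). Pecam1 gave 0.06 (-0.24 to 0.36), and Slco1a4, an organic anion transporter of the barrier, -0.24 (-0.58 to 0.09). Vwf, the von Willebrand factor, was the 1 endothelial gene at an unadjusted p under 0.05, at 2.11 to 2.69 in hTyr and 2.32 to 3.15 in EYFP, a change of -0.38 (-0.72 to -0.05, adjusted p = 0.990).

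Vcam1, an adhesion molecule that inflamed vessels raise, gave -0.12 (-0.43 to 0.19). The 6 measured pericyte and smooth muscle genes had a median of -0.05 and included Pdgfrb, a receptor of pericytes, at -0.05 (-0.36 to 0.26) and Acta2, smooth muscle actin, at 0.11 (-0.11 to 0.33). The 10 measured fibroblast and meningeal genes had a median of 0.04, with the collagen gene Col1a1 at 0.16 (-0.27 to 0.59). Haemoglobin genes, which report blood left in the tissue, varied more between animals than between groups. Hbb-bs stood at 8.10, 8.78, 9.64, 9.44 and 9.61 in hTyr and at 8.24 to 9.36 in EYFP, a change of 0.26 (-0.28 to 0.80).

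**Figure D4:**
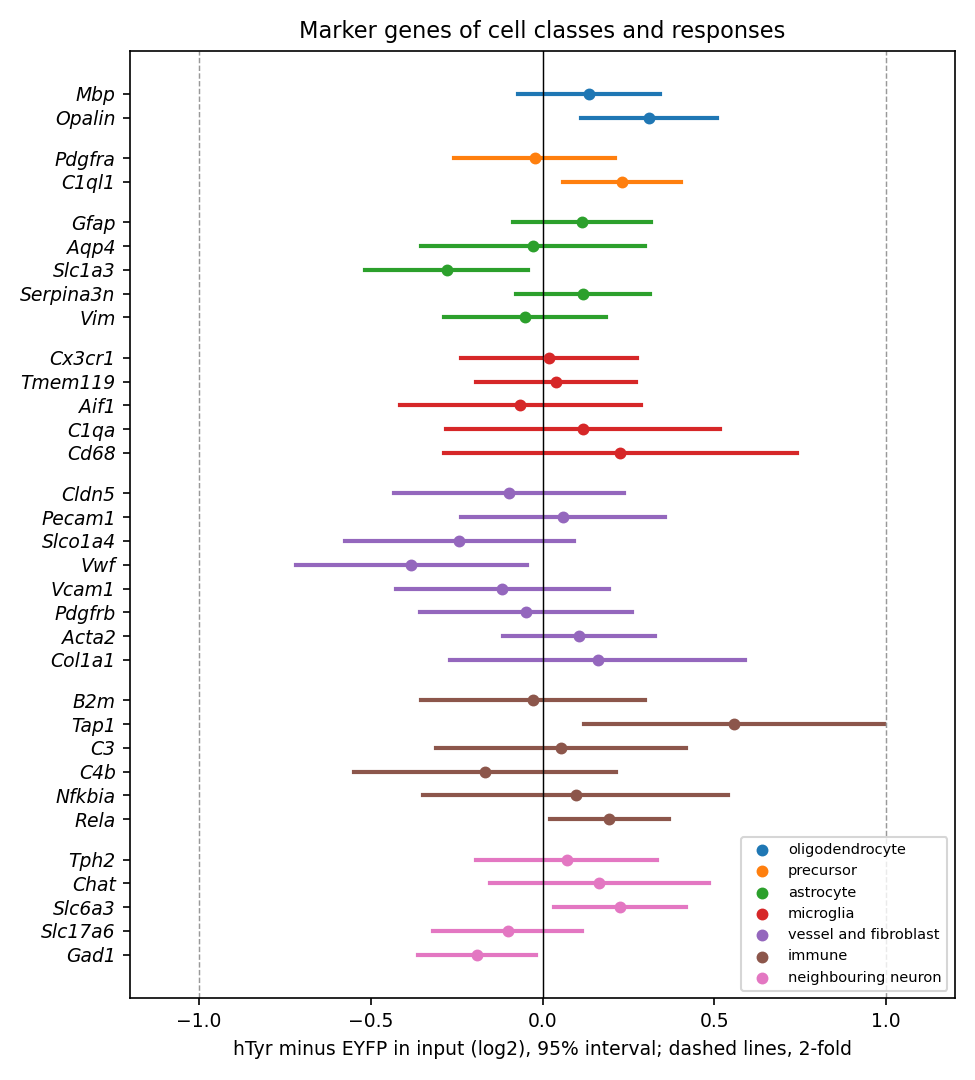
Log2 change in hTyr against EYFP input (points) with 95% intervals (bars, horizontal axis) for named marker genes of glia, vessels, immune signals and neighbouring neurons, coloured by class; dashed lines mark 2-fold in each direction. All intervals lie inside the dashed lines, and most include 0.

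Inflammatory genes that were measured gave 0 calls at the adjusted threshold. Of 25 interferon-response genes 15 were measured, with a median of -0.01 (0.01 under median centring and 0.04 under quantile normalization) and a range of -0.17 to 0.16, and none had an unadjusted p under 0.05. For complement, 11 of 16 genes gave a median of 0.03, with C3 at 0.05 (-0.31 to 0.42) and C4b at -0.17 (-0.55 to 0.21). For cytokines and NF-kB signalling, 14 of 28 genes gave a median of 0.05. The other 14, among them Tnf, Il1b, Il6 and Ccl2, were not analysed here. Nor were 10 of the interferon-response genes, among them Isg15 and Mx1. Rela, the p65 subunit of NF-kB, was at 5.01 to 5.29 in hTyr and 4.76 to 5.16 in EYFP, a change of 0.19 (unadjusted p = 0.0301, adjusted p = 0.990). Nfkbia, its inhibitor and target, gave 0.10 (-0.35 to 0.54).

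Antigen presentation genes had a median of 0.04 over 14 measured of 16. B2m, the light chain of class I molecules, gave -0.03 (-0.35 to 0.30). Tap1, which moves peptides to those molecules, stood at 2.49, 2.24, 2.86, 2.30 and 2.44 in hTyr and at 1.29 to 2.57 in EYFP with a median of 1.96. Its change was 0.56 (0.12 to 0.99, unadjusted p = 0.0155, adjusted p = 0.990). The group ranges overlapped through EYFP animal Pre_505. It was 1 of 3 genes with a positive change of at least 0.5, and the other 2, Gm9855 (0.82) and Gm4924 (0.52), were picked out after their values were seen.

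Stress genes were compared with the IP libraries of the same animals, where 7 genes passed the adjusted threshold (0.0556% of genes). In input those 7 had a median change of 0.06 and ranged from -0.13 to 0.49. Hmox1, the haem-degrading enzyme of the oxidative stress response, stood at 3.12, 3.38, 3.22, 3.15 and 3.54 log2 CPM in hTyr input and at 2.65 to 3.21 in EYFP input (median 3.11). Its change was 0.24 (-0.02 to 0.49) in input against 1.73 in IP. The hTyr effect in input minus that in IP was -1.49 (-2.06 to -0.92), with an adjusted p over all genes of 0.0765 in limma, and 0.0188 when the animal entered as a replicate block.

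Of genes of the endoplasmic reticulum stress response, Sdf2l1, a chaperone partner of that compartment, stood at 4.42, 4.27, 4.29, 4.55 and 4.61 in hTyr input and at 4.24 to 4.89 in EYFP input, a change of -0.13 (-0.40 to 0.13). It was the 1 gene whose effect differed between input and IP over all genes tested (0.00794%), by -1.58 (adjusted p = 0.00915 in limma), against 417 genes (3.31%) with p under 0.05 before adjustment. With the replicate block 5 genes passed (0.0397%), namely Sdf2l1, Ddit3, Creld2, Hmox1 and Tnfrsf12a. Ddit3, the transcription factor CHOP, had a change of -0.03 (-0.20 to 0.14) in input and 1.14 in IP. Over the 28 measured genes on the list of that response and of the integrated stress response, the input median was -0.04 and Creld2, at -0.26 (-0.49 to -0.02), was the 1 gene at an unadjusted p under 0.05.

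Cdkn1a, the cell cycle inhibitor p21 and a p53 target, was the stress gene with the largest positive change in input. It stood at 5.34, 4.85, 5.51, 5.15 and 5.15 in hTyr and at 4.19 to 5.11 in EYFP (median 4.85), a change of 0.49 (0.14 to 0.85, unadjusted p = 0.00905, adjusted p = 0.990). In IP its change was 1.27. The hTyr values lay in the upper part of the combined range, and EYFP animals Pre_507, Pre_511 and Pre_512 overlapped them. Of 18 measured p53 targets 3 were higher at an unadjusted p under 0.05, namely Cdkn1a, Phlda3 (0.25) and the nuclease gene Aen (0.21), and Sesn1 (-0.19) was lower, where 0.992% and 2.04% of all genes were higher and lower at that level. Their median was 0.04.

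**Figure D5:**
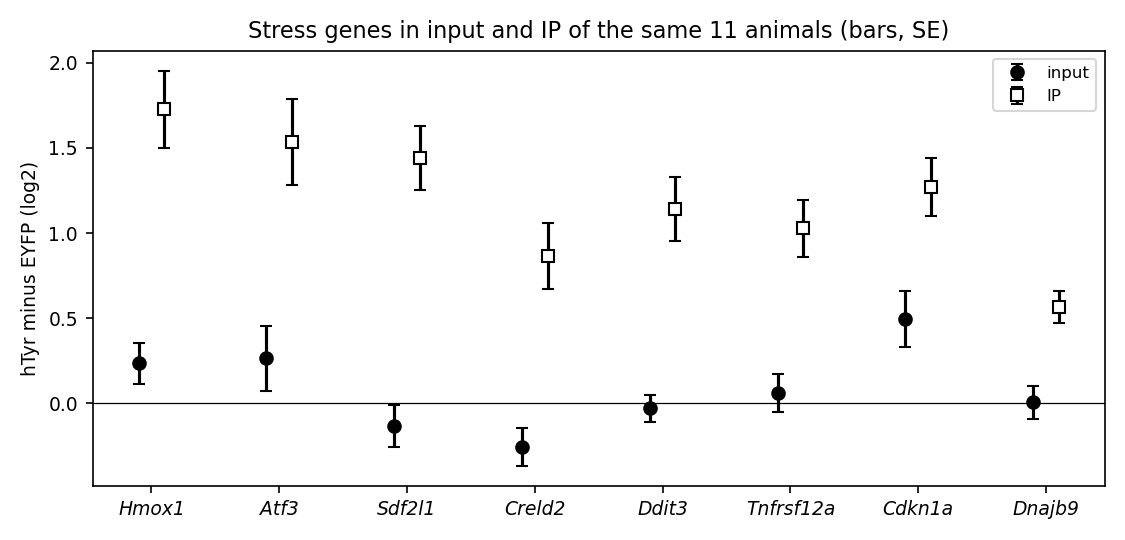
Log2 change in hTyr against EYFP (vertical axis, points with SE bars) of 8 stress genes in input (filled circles) and in IP (open squares) of the same 11 animals. In input the changes run from -0.26 for Creld2 to 0.49 for Cdkn1a, and each lies below the IP value of the same gene. The 8 genes include the 5 that passed the comparison of input with IP under the replicate block, so this direction is no separate result.

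Other response programmes gave 0 calls at the adjusted threshold. The 22 NRF2 targets measured, which include Hmox1, had a median of 0.04 with all intervals within 1.5-fold. Of 22 heat shock genes, 18 had a negative and 4 a positive change, where 46.4% of all genes were positive. Their median was -0.11, which stayed between -0.14 and -0.08 under the 3 rescalings and each animal left out. Of these Hspa4 had an unadjusted p under 0.05, at 6.29 to 6.84 in hTyr and 6.64 to 7.10 in EYFP, a change of -0.24 (-0.45 to -0.03). The inducible Hspa1a and Hspa1b gave -0.33 (-0.95 to 0.29) and -0.52 (-1.31 to 0.26), and both were highest in EYFP animal Pre_507, at 5.27 and 5.17.

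Immediate early genes, which follow neuronal activity and handling, had a median of 0.05 over 25 genes. Fos gave 0.02 (-0.24 to 0.28), and Gadd45b, a stress and activity gene, stood at 3.91 to 4.34 in hTyr and 3.61 to 4.02 in EYFP, a change of 0.31 (unadjusted p = 0.00887, adjusted p = 0.990). The clock gene Per1 gave -0.15 (-0.48 to 0.17) and Fkbp5, a target of stress hormones, -0.14 (-0.34 to 0.06). The 10 measured genes of lysosomes and pigment had a median of 0.02, with Gpnmb, which pigment-laden and lipid-laden cells raise, at -0.06. Cholesterol synthesis genes had a median of 0.05 over 18.

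Besides Slc6a2, 15 genes were named, as description, because their groups did not overlap. With Slc6a2 they are the 8 with the smallest unadjusted p in each direction, out of 12 non-overlapping higher genes (0.0953%) and 10 lower (0.0794%). Apln, the vascular peptide apelin, stood at 6.31, 6.27, 6.43, 6.28 and 6.35 in hTyr and at 6.08 to 6.17 in EYFP, a change of 0.20 (0.09 to 0.32, adjusted p = 0.990). The other higher genes were Bak1, an executor of mitochondrial cell death, Mapk8ip2, Slc35b2, Arhgap27, Slc52a2, Wwc2 and Plk3, with changes of 0.18 to 0.23.

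Among lower genes after Slc6a2, Angpt1, a ligand that stabilises vessels, stood at 1.12, 1.16, 1.10, 1.38 and 0.99 in hTyr and at 1.54 to 1.90 in EYFP, a change of -0.52 (-0.86 to -0.18). It was a low-count gene, with 49 to 75 reads in EYFP, and its effect in IP was 0.23. Ppm1k, a mitochondrial phosphatase, gave -0.28, and Trip4, LOC102643247, Spata13, Elavl1 and Ept1 gave -0.34 to -0.14. All 15 genes other than Slc6a2 had an adjusted p of 0.990.

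Across genes, the changes in input went with transcript length and base composition. Over the 12372 genes with a length, as points that share libraries, the log2 change had a Spearman's rho of -0.40 with length and 0.41 with GC content. Without hTyr animal Pre_501 it was -0.26 and 0.09. Animals within a group differed widely in this trend. For each library's deviation from the mean level, rho with length ran from -0.40 to 0.36 in hTyr and from -0.03 to 0.28 in EYFP. An exact permutation test between the groups gave p = 0.203 for length and 0.303 for GC content. Genes at an unadjusted p under 0.05 had a median transcript length of 5858 bases when lower and 2573 when higher, against 3496 over all genes. After removal of each library's trend on length and GC content, 195 genes were higher and 192 lower at that unadjusted level, and median centring gave 231 and 157, quantile normalization 194 and 180. The excess of lower over higher genes was thus not kept under these scalings, while Slc6a2 had changes of -0.92 to -0.86 in them. Of the medians of 45 gene lists, 1 changed sign with median centring, 3 with quantile normalization and 3 with these trends removed.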

How the data were processed

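The authors deposited 1 table of values for 12596 genes and 22 libraries, described by its name as filtered, normalized and log transformed. Per the submitters' processing notes the tools were STAR and featureCounts and the build mm10, and the normalization method is not given in the sources used here. The deposited values were found to be log2 CPM with a pseudocount averaging 2 reads, since 100% of them came out as whole reads within 0.05 reads. Reads outside the table are unknown, reads carry no molecular identifiers, and totals speak of counting error alone. Genes were named as in the table, and positions, lengths and GC content came from GENCODE M21 (12372 genes, 98.2%).

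The deposited log2 values of the 11 input libraries were compared between hTyr and EYFP with limma (version 3.58.1, mean-variance trend, R 4.3.3), adjusted by Benjamini-Hochberg over all genes with a threshold of 0.05. Intervals are 95%, and p-values are two-sided. The difference between the effects in input and IP was an interaction over 22 libraries, which left out the pairing of libraries by animal. Its alternative used the animal as a replicate block. Both libraries came from 1 animal, as the shared number in the titles shows. Their deviations from the group means had a mean r of 0.448, from 0.279 to 0.626. The mean of -0.096 between animals of a group follows from centring on the group means and is no separate check. The fit was tested on simulated data.

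The groups of libraries, members and gene lists were chosen with earlier results of these data known. The 4 lists of forebrain, pituitary, hypothalamic and mitochondrially encoded genes, and the cerebellar and forebrain covariates, were added after the values were seen. Named genes are those past the threshold, the 8 of smallest p in each direction among genes without overlap, the member of smallest unadjusted p under 0.05 in each list and direction, and 44 set markers, of which 5 (Cst7, Mrc1, Icam1, Isg15 and Ccl2) are not analysed here. Other list members are given as examples, and some genes are not reported here. Alternatives were no variance trend, 2 normalizations, a filter keeping the upper 75% of genes by mean level, a pseudocount of 5 CPM, sample weights, a shared spread, voom on recovered reads, 5 covariates, length and GC trends removed by loess (span 0.4) and leaving out each animal. voom stood in for a count test because the deposited unit is log2. Figures were drawn with Python 3.11.15 and matplotlib 3.10.9.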

Additional observations from a re-analysis of the deposited data

Results flagged for a closer look

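Of 230 sets of values tested (named genes and list means, in each group), 15 held a library far from the rest of its group, where chance gives about 1 in 20, or 11.5. EYFP animal Pre_511 was lowest of its group for C4b (4.301 log2 CPM, the others from 5.02), Cd68 (1.6004, the others from 2.66) and Slc35b2 (4.5521, the others from 4.77), and highest for the general neuronal mean (9.0974, the others up to 8.88). EYFP animal Pre_504 was lowest for Hmox1 (2.6464), Plk3 (3.8285), Ttr (7.5815, the others from 10.34) and the ependymal and choroid plexus mean (3.1513, the others from 4.49). Slco1a4 was highest in EYFP animal Pre_506 (3.1895), and the mean of mitochondrially encoded genes in EYFP animal Pre_507 (11.5947, the others up to 10.50).

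In hTyr, animal Pre_509 was highest for the forebrain mean (5.0361, the others up to 2.30) and the immediate early mean (4.8036, the others up to 4.39). Animal Pre_501 was lowest for the pituitary mean (-0.2007, the others from 3.40) and for Ppm1k (4.6583, the others from 5.04). Animal Pre_510 was highest for the GABAergic and glycinergic mean (5.9108, the others up to 5.71).

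In limma's interaction, 3 of the 70 named genes differed between input and IP in their hTyr effect when these genes alone were considered, and they were partly chosen for their values. The log2 differences were -1.49 for Hmox1, -1.12 for Creld2 and -1.27 for Atf3. Over all genes tested their adjusted p was 0.0765, 0.257 and 0.570, and with the animal as replicate block 0.0188, 0.0188 and 0.278.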

How the results depend on the processing

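The 1 gene past the adjusted threshold became 0 with 1 spread shared over 22 libraries, with length and GC trends removed, and with covariates for oligodendrocyte, cerebellar or forebrain means or total reads, and ran from 0 to 2 with each animal left out (2 without hTyr animal Pre_509, Slc6a2 and Zbtb20, the latter named after its value was seen). Of the 25 alternatives 10 kept Slc6a2 past the threshold. Its log2 change fell short of it at -0.91 with the shared spread (adjusted p = 1.00), -0.86 with trends removed (0.0502), -0.99 with the oligodendrocyte (0.150), -1.03 with the cerebellar and -0.92 with the forebrain covariate, and -0.91 with total reads (0.217), and ran from -0.96 to -0.84 with each animal left out. Over all alternatives it lay between -1.03 and -0.50, the latter with 5 CPM added, and its unadjusted p was at most 0.000248. The cause of these lost calls was not tested. The 382 genes at an unadjusted p under 0.05 became 253 with the shared spread, 866 with the oligodendrocyte and 245 with the cerebellar covariate, and ran from 164 (without hTyr animal Pre_501) to 1074 (without hTyr animal Pre_509). The single gene whose effect differed between input and IP became 5 with animals as replicate block, 5 with the replicate block and length and GC trends removed, and 0 to 5 with each animal left out (0 without EYFP animal Pre_512 or hTyr animal Pre_502, 5 without hTyr animal Pre_510). The block entered no other result. Of 1734 values of named genes 68 changed sign under an alternative, and of 1123 list medians 121. Low counts limit Slc6a2 and Angpt1, among others. No edgeR or DESeq2 test was run.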

Other observations

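Transcription factors that mark position along the hindbrain, 16 measured of 17 listed, gave a median change of 0.11 (log2). Of the 16, 14 were positive, against 46.4% of all genes. Hoxa3 (0.24) and Hoxb5 (0.19), which are active behind the pons, had an unadjusted limma p under 0.05. Of all genes 0.992% were higher at that level. En2, which marks the midbrain and cerebellum, gave -0.24. None passed the adjusted threshold.

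Neuropeptide genes, 17 measured of 18, had a median of 0.07, with Trh at 0.28 and Cartpt at 0.25. Circadian clock genes had a median of -0.07 over 18, trophic factor and matrix genes 0.04 over 18 of 27, with the protease gene Mmp14 at 0.17, and glucocorticoid response genes -0.03 over 16 of 18. Nuclear-retained RNAs had a median of -0.08 over 7 of 9 and proliferation genes -0.12 over 6 of 15. No gene of these lists passed the adjusted threshold.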
